A study of Drosophila melanogaster with 2 samples.

Results

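The microRNA genes of Drosophila melanogaster were examined for binding by Brinker, a sequence-specific repressor of genes that respond to the BMP ligand Dpp. They were chosen by name, as every gene of the annotation whose symbol begins with mir-, and number 262 of the 17873 annotated genes other than transposable elements. Of these, 260 lie on the 6 chromosome arms. The other 2 lie on the rDNA sequence and count as unbound because only peaks on the arms were used. A gene was called bound when a peak summit lay within 5 kb of it, and 55 of the 262 were bound. Neighbouring microRNA genes were also grouped into 205 loci, which are runs of genes on 1 strand with gaps of at most 10 kb, so that members of a cluster that share a peak count once. Of the 205 loci, 43 were bound.

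Chromatin came from whole larvae of the third instar, at the wandering stage, of a transgenic line that stably expresses Brinker with green fluorescent protein (GFP) fused to its C terminus, with males and females pooled and age given as unknown. Sonicated chromatin was precipitated with an antibody against GFP. There was 1 group, strain brk-GFP, with biological replicates 3 and 4, and both carried the transgene. No other genotype, tissue or stage was used here, so there is no contrast and no test of one, and values from whole larvae cannot tell cell types apart. Peaks came from the dm6 list of peaks that passed the irreproducible discovery rate (IDR) step, which compares replicate rankings. It holds 3413 peaks, 3380 of them on the 6 arms. The signal of a peak is the value deposited in the peak list, without a stated scale, and the lists give no read depth.

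A microRNA is cut from a hairpin within a longer transcript and guides an Argonaute protein to messenger RNAs that pair with its seed, the bases near its 5′ end. Many microRNA genes lie in an intron of a protein-coding gene or in a long non-coding RNA, so the promoter of the host can also make the microRNA. The bantam microRNA promotes growth and represses the death gene hid. Brinker is known to repress bantam in the wing primordium, and Yorkie with Scalloped or Homothorax is known to activate it. Binding near a gene is not a measure of its expression, and no RNA was measured here.

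The mature sequences of 10 bound genes are given because they belong to the loci described below and show which bound genes share a seed. Seed bases 2 to 8 are in capitals, and the sequences were read 5′ to 3′ from the RefSeq annotation of Release 6 (dm6).
mir-ban: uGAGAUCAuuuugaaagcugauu
mir-279: uGACUAGAuccacacucauuaa
mir-996: uGACUAGAuuucaugcucgucu
mir-282: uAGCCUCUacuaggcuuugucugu
mir-9a: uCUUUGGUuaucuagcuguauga
mir-275: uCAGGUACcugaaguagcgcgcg
mir-276a: uAGGAACUucauaccgugcucu
mir-2a-1: uAUCACAGccagcuuugaugagc
mir-2b-1: uAUCACAGccagcuuugaggagc
mir-11: cAUCACAGucugaguucuugc
mir-279 and mir-996 carry the same seed and lie in 1 locus, and mir-2a-1, mir-2b-1 and mir-11 share a seed from 3 separate loci.

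Bound microRNA genes were no more frequent than bound genes of other kinds. The share was 21.0% of microRNA genes (55 of 262, 95% Wilson interval 16.5 to 26.3) and 21.0% of loci (43 of 205, 15.96 to 27.1). Among all other genes of the arms 26.8% were bound, and among protein-coding genes 26.9%. The share was 36.0% for genes of transfer, small nucleolar and small nuclear RNAs. A gene span of any length adds to the chance of a nearby summit, and the microRNA genes are short, with a median of 92 bp (50 to 174). Of all sequenced positions of the arms, 16.2% lay within 5 kb of a summit, and of positions inside protein-coding genes 18.5% did. The Wilson interval of the loci runs from just below the share of arm positions to just above that of protein-coding genes. These intervals cover counting error only.

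The share of microRNA genes near a summit rose with distance, as did that of positions. Within 500 bp there were 10 genes (3.82%, against 2.39% of positions), and within 1 kb there were 16 (6.11%, against 4.47%). Within 2 kb there were 24 (9.16%, against 8.01%), and within 20 kb 132 (50.4%, against 40.8%). From 500 bp outward the genes lay above the positions at every distance examined, while at 100 bp and 200 bp they did not. Each distance includes the shorter ones and clustered genes share peaks, so these are not separate comparisons. The difference from positions was not tested. At the 5 kb limit, the last genes inside were mir-7 at 4818 bp and mir-9370 at 4937 bp, and the first outside were mir-315 at 5120 bp, mir-9376 at 5126 bp and mir-2282 at 5151 bp.

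**Figure D1:**
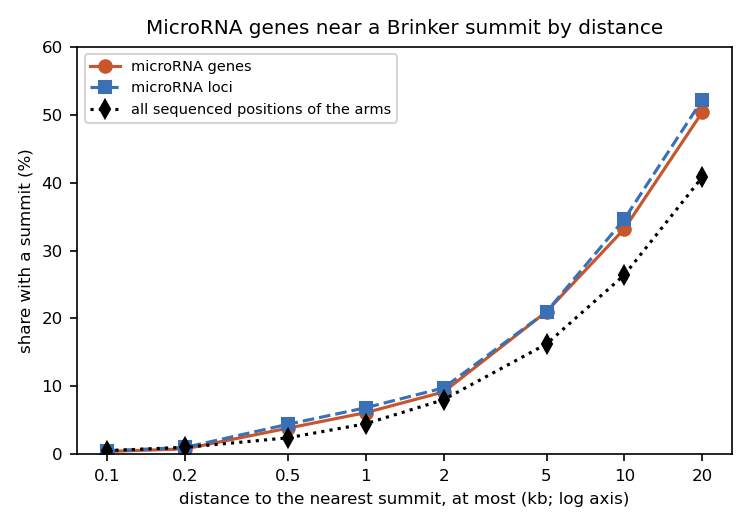
Share of microRNA genes (circles), microRNA loci (squares) and sequenced arm positions (diamonds), in percent, with a summit of the IDR list at or within each distance in kb on a log axis. At 5 kb the genes and loci are both at 21.0% and the positions at 16.2%.

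The bound loci held 83 separate peaks, 2.46% of the 3380 on the arms (1.99 to 3.03), which formed 112 pairs of a gene and a peak. A single peak was found at 21 loci and 2 peaks at 15. There were 3 to 5 peaks at 6 loci, and 8 at mir-282. Loci of 2 or more genes were bound in 7 of 22 cases (31.8%, 16.4 to 52.7) and single genes in 36 of 183 (19.7%, 14.6 to 26.03), intervals that overlap. Clusters also span more sequence than single genes.

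By host, 25 of 124 loci in protein-coding hosts were bound (20.2%, 14.0 to 28.1), 10 of 34 in non-coding hosts (29.4%, 16.8 to 46.2) and 8 of 47 with no host on their strand (17.0%, 8.89 to 30.1). A locus took its class from the host of any of its genes. The locus of mir-317 is thus among the 10, although mir-317, its only bound gene, has no host. By arm, the bound share of loci ran from 11 of 41 on 2L (26.8%) and 8 of 31 on 3L (25.8%) through 10 of 41 on 2R (24.4%) and 8 of 49 on 3R (16.3%) to 4 of 39 on X (10.3%). Both microRNA genes of chromosome 4 were bound. Counted as genes, X had 4 of 58 (6.90%). For loci of the 5 large arms all Wilson intervals overlap one another. Counted as genes, that of X (2.71 to 16.4) lies below that of 2R (17 of 55, 20.3 to 44.0), where the 7 genes of 1 cluster share their peaks. On X, unbound clusters also count gene by gene, 1 of them with 12 genes. No share of all genes or positions was taken per arm, so nothing particular to microRNA genes is read from these counts. Larvae of both sexes were pooled. Genes with names or numbers below 2000, the older part of the microRNA registry, were bound in 37 of 152 cases (24.3%, 18.2 to 31.7) and those numbered from 2000 in 18 of 110 (16.4%, 10.6 to 24.4).

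**Figure D2:**
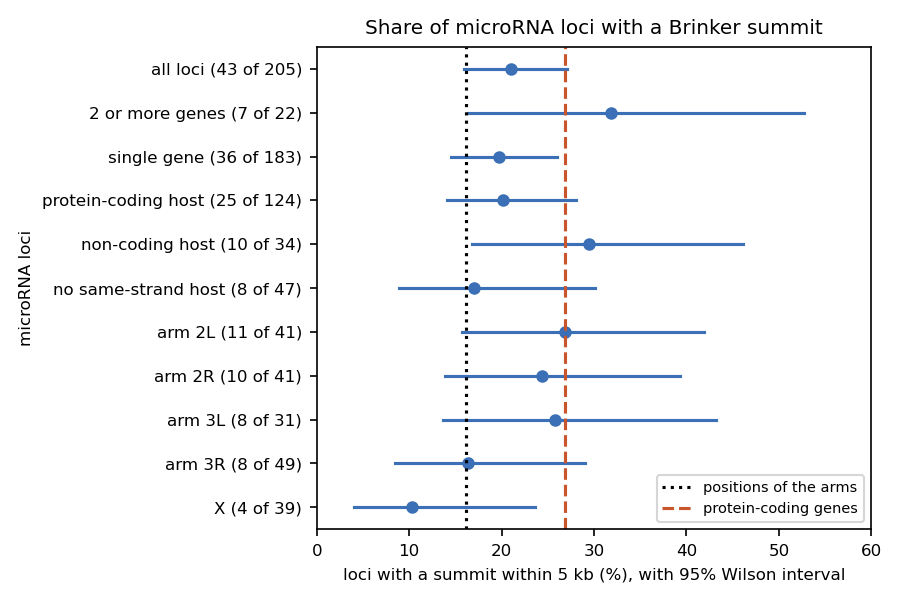
Share of microRNA loci with a summit within 5 kb, in percent with 95% Wilson intervals, for all loci and by cluster size, host class and chromosome arm. Vertical lines mark arm positions (dotted, 16.2%) and protein-coding genes (dashed, 26.9%), and every interval drawn crosses at least 1 of them; chromosome 4, with 2 loci, is not drawn.

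At bantam the IDR list held 1 peak within 5 kb. The gene mir-ban (FBgn0262451) lies at chr3L:642208-642288 on the plus strand inside lncRNA:CR43334, its non-coding host, at chr3L:628435-643900. The peak at chr3L:640595-641010 had a signal of 68.5 in replicate 3, 98.7 in replicate 4 and 166 in the list from both, which is rank 895 of 3380. Both replicates therefore had an entry, replicate 4 the higher. Its summit was 1405 bp upstream of mir-ban, in an exon of the host and 1089 bp from the nearest host start.

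More peaks lay farther up the host and beyond it. At the first start of the host, 210 bp from it and 13983 bp upstream of mir-ban, a promoter peak had 66.7 in replicate 3, 78.3 in replicate 4 and 138 in the IDR list. A weaker one, 7377 bp upstream of mir-ban, had 44.6, 45.1 and 91.3 in the same order. The 2 peaks in the host body and the one at its start were thus all present in both replicates. The strongest within 60 kb was 20635 bp upstream, in an intron of lncRNA:CR43337, with 215 in replicate 3, 190 in replicate 4 and 408 in the IDR list (rank 94). Within 60 kb there were 10 IDR peaks upstream of mir-ban and 2 downstream, the nearer of these 18254 bp away.

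**Figure D3:**
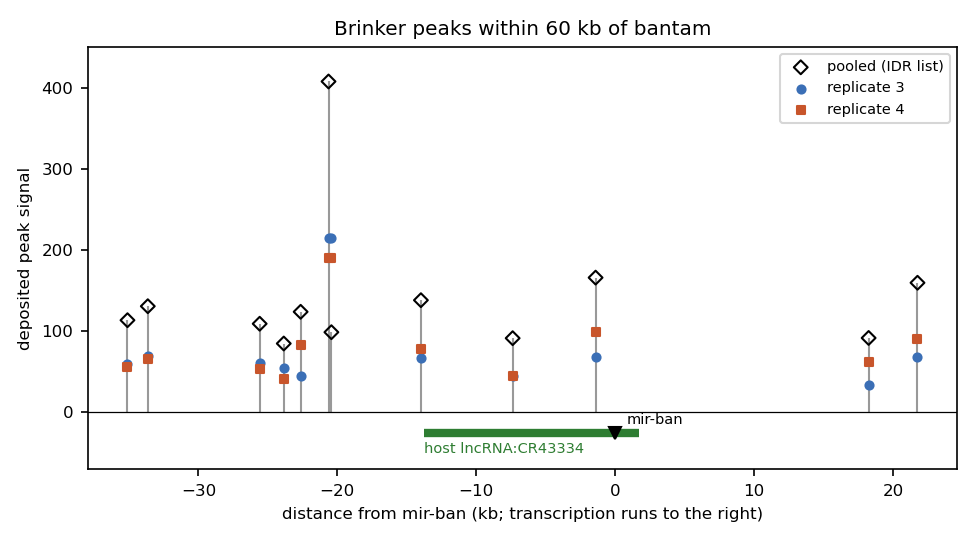
Signal of every IDR peak within 60 kb of bantam (diamonds) with that of the overlapping entry in replicate 3 (circles) and replicate 4 (squares), against distance from mir-ban in kb; the bar is the host transcript unit. The tallest peak, at 408, lies 20635 bp upstream, and the only one within 5 kb, at 166, lies 1405 bp upstream.

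The 201 bp around the summit nearest to bantam are shown because bantam is a known Brinker target. The known Brinker site is GGCG followed by any pair of pyrimidines, and it was searched on both strands. The window, chr3L:640703-640903 on the plus strand of RefSeq Release 6, has 32.8% G and C and no match.
mir-ban: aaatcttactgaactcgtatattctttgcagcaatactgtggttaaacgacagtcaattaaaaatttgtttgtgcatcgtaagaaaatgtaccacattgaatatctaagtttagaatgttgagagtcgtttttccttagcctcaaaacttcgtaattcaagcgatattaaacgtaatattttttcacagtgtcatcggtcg
Matches to the site lay within 100 bp of the summit in 14 of the 83 peaks at microRNA genes (16.9%, 10.3 to 26.3) and in 482 of all 3380 (14.3%). The promoter peak at the first start of the bantam host had 1 match.

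The strongest peak at any microRNA locus was at mir-279 and mir-996, which in the olfactory system restrict the formation of carbon dioxide sensing neurons. It had 366 in replicate 3, 336 in replicate 4 and 690 in the IDR list, rank 23 of 3380. The summit lay 217 bp from a start of the host lncRNA:CR31044 and 1240 bp upstream of mir-279. A second peak 362 bp upstream of mir-279 had 46.9, 87.5 and 157 in the same order, and the farthest, near 5 kb, had 39.4, 38.3 and 87.2. Replicates differed at the second and were close at the others.

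Next was mir-282, in lncRNA:CR43626, with 8 peaks from 4530 bp upstream to 964 bp downstream. Its strongest, 3310 bp upstream, had 358 in replicate 3, 322 in replicate 4 and 653 in the IDR list, and lay in the promoter of CG43389, 303 bp from its start. A peak 471 bp from a start of the host had 163, 154 and 308. The 8 IDR signals ranged from 106 to 653, with 3 summits in host promoters and 2 in host exons. Of the 83 microRNA peaks 12 overlap another of them, and such neighbours can match the same replicate entry, so their replicate values are not separate measurements.

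Other microRNAs with developmental roles in non-coding hosts were bound at lower levels. At mir-9a, which limits the number of sensory organ precursors, replicates had 200 and 226 and the IDR list 431, at a summit 4341 bp upstream in the promoter of lncRNA:CR44676 and 1846 bp from the host start. At mir-14, which limits cell death and fat storage, the values were 130, 95.1 and 228, 164 bp from the start of the host lncRNA:CR43651. At mir-276a, which acts in olfactory memory, they were 128, 55.9 and 184, 229 bp from a host start of lncRNA:CR46006. Of these loci the replicates differed most at mir-276a, where replicate 3 was the higher.

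The pair mir-275 and mir-305, the latter active in intestinal stem cells, had 5 peaks. The strongest had 141 in replicate 3, 138 in replicate 4 and 291 in the IDR list, 309 bp from the start of lncRNA:CR43857, which spans mir-275 but not mir-305. The other 4 had IDR signals of 90.2, 205, 113 and 125. At mir-8, which promotes growth of the fat body and body size, the stronger peak had 36.8 in replicate 3 and 79.1 in replicate 4, and the one 93 bp from a host start had 74.7 and 35.8. Their IDR signals were 117 and 105, so the replicates ranked the 2 peaks of mir-8 in opposite order. Near mir-10, in the Hox complex that holds Antp, 1 peak had 38.6, 44.9 and 88.5. At mir-317 the stronger of 2 had 48.8, 62.6 and 114, while mir-277 and mir-34 of that locus had none within 5 kb. The host lncRNA:CR43459 spans mir-277 and mir-34 but not mir-317.

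Windows of 201 bp with a Brinker site are given for 3 loci, because they show how the site is arranged where it occurs. They are from RefSeq Release 6, plus strand, with sites on either strand in capitals. They lie at chr3L:10363690-10363890 (the host promoter of mir-276a, 1 site), chr2L:7423610-7423810 (the host promoter of mir-275, 3 sites) and chr3R:14391339-14391539 (4960 bp downstream of mir-2281, 4 sites). The window of mir-275 is that of its peak with an IDR signal of 90.2. The strongest peak there, with 291, overlaps that peak and had no site within 100 bp of its summit. The strongest peak at any microRNA locus, at mir-279 (chr3R:29214245-29214445), is added for contrast and has none.
mir-276a: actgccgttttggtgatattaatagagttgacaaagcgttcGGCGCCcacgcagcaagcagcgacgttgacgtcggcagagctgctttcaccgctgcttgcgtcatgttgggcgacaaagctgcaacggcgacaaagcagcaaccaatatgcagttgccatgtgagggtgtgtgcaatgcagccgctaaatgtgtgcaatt
mir-275: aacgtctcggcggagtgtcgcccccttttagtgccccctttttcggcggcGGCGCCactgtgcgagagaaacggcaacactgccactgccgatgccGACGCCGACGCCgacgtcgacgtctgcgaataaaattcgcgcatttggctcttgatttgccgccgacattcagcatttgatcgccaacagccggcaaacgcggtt
mir-2281: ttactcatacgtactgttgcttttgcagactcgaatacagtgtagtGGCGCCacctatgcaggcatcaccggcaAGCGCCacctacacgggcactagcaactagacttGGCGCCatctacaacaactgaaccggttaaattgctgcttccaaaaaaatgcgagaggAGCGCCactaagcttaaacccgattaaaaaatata
mir-279: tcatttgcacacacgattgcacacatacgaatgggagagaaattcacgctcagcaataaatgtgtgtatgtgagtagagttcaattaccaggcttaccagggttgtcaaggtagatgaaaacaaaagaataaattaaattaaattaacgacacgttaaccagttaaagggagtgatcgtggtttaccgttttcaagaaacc
The 4 sites at mir-2281 are a number that no window of the 3380 peaks exceeded, and that peak had 43.5 in replicate 3, 51.5 in replicate 4 and 103 in the IDR list, below the median of 119 over all peaks. The window with most sites was thus far weaker than that of mir-279 without one.

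In protein-coding hosts the peak was often at the promoter of the host or of another gene. The highest was at mir-1004, with 207 in replicate 3, 227 in replicate 4 and 445 in the IDR list, but it lay 184 bp from the start of bowl, a zinc finger gene of the odd-skipped family, and not at its host CG43707. At mir-1006, in the proton pump gene VhaSFD, the values were 210, 217 and 420, and the nearest start was that of Cyt-c-p, a cytochrome c gene. Both therefore had strong and even signal in the replicates at genes other than the host. At mir-4972, in the protein kinase gene for (foraging), they were 150, 216 and 337, at a promoter of the host. At mir-9377 the strongest of 4 peaks had 106, 150 and 249 and lay in an intron of the host Tis11, an mRNA decay factor gene. At mir-4943 the values were 102, 116 and 226, at the promoter of the host CG5953.

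The remaining loci of this strength, mir-87 and mir-955, had no host on their strand. At mir-87 the values were 163 in replicate 3, 147 in replicate 4 and 314 in the IDR list, 5 bp from the start of CG4709. At mir-955 they were 154, 172 and 314, at the promoter of CG14968. With mir-279 and mir-996, mir-282, mir-9a, mir-14, and mir-275 and mir-305, these complete the 12 loci of highest signal.

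The microRNAs of the mir-2 family repress the death genes reaper, grim and hid, and were bound at several hosts. The genes mir-2a-1, mir-2a-2 and mir-2b-2 lie in spi, which encodes the EGF receptor ligand Spitz, where the strongest of 4 peaks had 125 in replicate 3, 95.3 in replicate 4 and 225 in the IDR list. At mir-2b-1, in the kinase gene Btk, the values were 52.9, 39.3 and 92.6, with the summit 102 bp downstream of the microRNA gene. These were therefore the lower values, although that summit was among the closest to any member. At mir-11 and mir-998, in the cell cycle gene E2f1, they were 71.9, 90.2 and 159, and the summit was 64 bp from a start of InR, the insulin receptor gene, downstream of the microRNAs. At mir-308, in the ribosomal protein gene RpS23, 2 peaks had IDR signals of 108 each.

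Of the 14 genes with the seed AUCACAG, 6 were bound, and of their 7 loci 4, beside 21.0% of all microRNA genes and of all loci. The family was grouped from the seeds of bound genes, so nothing particular to it is read from these counts. The unbound genes are mir-2c with the mir-13 genes, mir-5 and the mir-6 genes. The seed GACUAGA is carried by mir-279 and mir-996, both bound, and by mir-286, which was not. Of the 3 mir-9 genes with the seed CUUUGGU mir-9a was bound, and of the pair with AGGAACU mir-276a. The seed GAACACA, of mir-317 and mir-4943, was the only one examined with 2 loci where both were bound. Within the mature sequences examined, the bantam seed GAGAUCA occurred in mir-ban alone.

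Peaks were also listed at other microRNA genes with known roles. At mir-33, in the lipid regulator gene SREBP, replicates had 89.1 and 109 and the IDR list 209, 157 bp from a host start. The 7 genes of the mir-310 cluster shared 2 peaks, of which the stronger had 67.3, 38.0 and 109 and lay 136 bp from a start of HnRNP-K. At mir-7, which promotes photoreceptor differentiation and lies in HnRNP-K on the other strand from that cluster, the values were 49.4, 46.9 and 105 at 4818 bp. The stronger peak of the mir-310 cluster and the peak at mir-7 are therefore separate peaks with HnRNP-K as the nearest start. The former was also within 500 bp of a start of Nnf1a. The other peak of the cluster, with an IDR signal of 97.5, lay in an intron, 1541 bp from the nearest start, that of qsm.

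**Figure D4:**
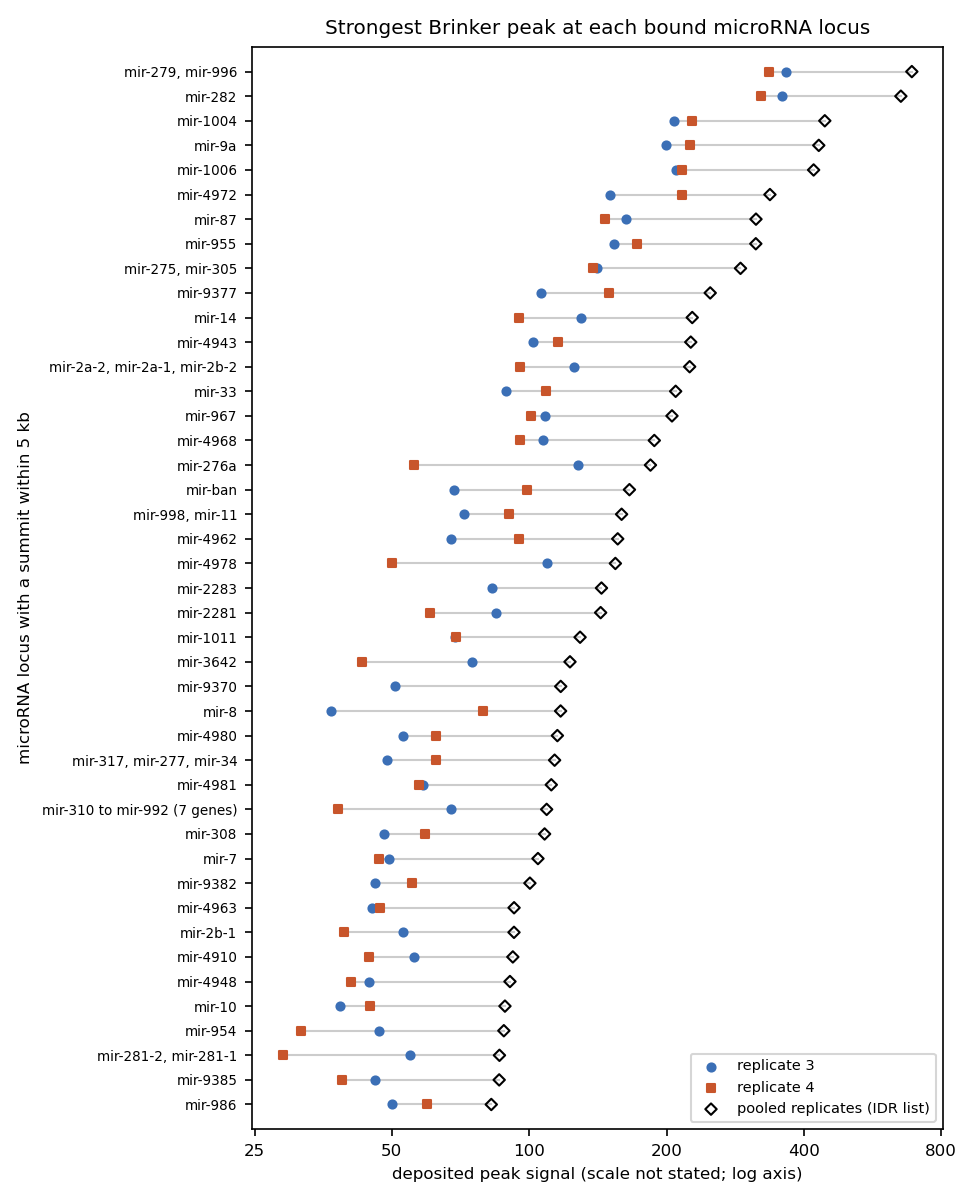
Signal of the strongest peak at each of the 43 bound microRNA loci on a log axis, in replicate 3 (circles), replicate 4 (squares) and the IDR list from both (diamonds). The IDR values run from 82.6 at mir-986 to 690 at mir-279 and mir-996, and the loci mir-2283 and mir-9370 have no entry in replicate 4.

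The remaining bound loci in protein-coding hosts were mir-967 in bun (IDR signal 206), mir-4968 in Mob2 (188), mir-4962 in Tlk (156, 5 peaks), mir-2283 in CG8176 and Kdm3 (144), mir-2281 in cv-c (143), mir-1011 in Ir93a (129), mir-3642 in Apt1 (123), mir-9370 in Amun (117) and mir-4980 in CanB2 (115). Weaker ones were mir-9382 in MRP (100.4), mir-4963 in CG15767 (92.7), mir-4910 in CG3225 (92.1), mir-281-1 and mir-281-2 in Oda (86.1) and mir-986 in Cyp4e2 (82.6). The peak counted for mir-1011 lay 1 bp from a start of RpS30, a ribosomal protein gene, and that for mir-2283 was 45 bp from a start of Rlb1. Loci without a host were mir-4978 (155), mir-4981 (112), mir-4948 (90.8), mir-954 (88.0) and mir-9385 (86.0). The peak at mir-954 lay at the promoter of mav, which encodes a ligand of the TGF-beta family.

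Of the 39 genes listed for a known role, bantam included, 18 were bound, in 13 of 25 loci, beside 21.0% of all microRNA genes and of all loci and 26.8% of other genes. The list was picked by hand with earlier results of these data known, and several of its genes share a peak, so the count is not evidence about microRNAs with known roles. The let-7 complex, which times the change from larva to adult, was just outside the limit. Its members mir-100, mir-let7 and mir-125 had their nearest summits at 5733, 5479 and 5166 bp, and the host lncRNA:let7C had 3 IDR peaks in it or within 5 kb, up to 120. Within 5 kb of mir-let7 the strongest entry was 76.1 in the pooled list, 56.4 in replicate 3 and 35.2 in replicate 4. Each was taken separately, and they need not be the same peak. The pooled value is below the lowest IDR signal of 82.6 on the arms. Entries were thus present within 5 kb in both replicates, with a pooled level that the IDR list does not include.

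Several microRNAs of single tissues were far from any summit. For mir-1 of muscle the nearest was 69382 bp away, for mir-124 of neurons 115445 bp, and for mir-278, which acts in energy balance, 127803 bp. The strongest pooled entry within 5 kb was 22.4 at mir-1 and 36.4 at mir-124, and none was listed at mir-278. Values were thus low in the pooled list as well. The Hox regulators mir-iab-4 and mir-iab-8, made from opposite strands of 1 place, were 126045 bp from a summit. The apoptosis regulator mir-bft (also called mir-263a) was 73717 bp away, mir-263b 15914 bp, mir-34 12206 bp and mir-2c 8198 bp. The early embryonic cluster of mir-309, mir-3, mir-286, mir-4, mir-5 and the mir-6 genes had its nearest summits 28499 to 29489 bp away and no entry in the pooled list within 5 kb.

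A microRNA gene without a summit within 5 kb can still have one at its host. Of 145 unbound microRNA genes with a host on their strand, 42 had an IDR summit in the host or within 5 kb of it. These genes were kept for having no summit within 5 kb, and genes of 1 cluster count the same host again. Their share is therefore not comparable with that of all genes. Counted over all hosts, of bound and unbound genes, 55 of 128 protein-coding hosts (43.0%) and 15 of 33 non-coding hosts (45.5%) had such a summit. The share was 26.8% of all other genes and 26.9% of protein-coding genes, which are shorter than the hosts. Near mir-184, which acts in the female germ line, the host lncRNA:CR44206 had 2 peaks, up to 118, the nearer 120 bp from a host start. Hosts of unbound genes also included jigr1 (mir-92a and mir-92b, up to 308), tau (mir-1001, 766), hth (mir-4944, 168) and wts (mir-1013, 190), the Hippo pathway kinase gene. These values are of peaks in the host or within 5 kb of it, which can lie at a neighbouring gene. They are not values of the microRNA genes. At tau no summit lay within 500 bp of a host start.

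Host promoters were also counted separately, whatever the distance to the microRNA. A summit lay within 500 bp of a start of 28 of the 128 protein-coding hosts (21.9%), against 10.5% of all protein-coding genes. For non-coding hosts it was 9 of 33 (27.3%), against 6.11% of all non-coding RNA genes other than microRNAs. The hosts are longer than the genes they are set beside: the median length was 14095 bp for protein-coding hosts against 2166 bp for the class, and 6494 bp against 707 bp for non-coding ones. The part of length, and of the number of starts, in these shares was not tested. The 9 non-coding hosts are those of mir-279 and mir-996, mir-ban, mir-282, mir-8, mir-14, mir-275, mir-276a, mir-184 and, in lncRNA:Hsromega, mir-4951.

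Peaks at bound loci lay mostly on the upstream side. The strongest summit was upstream of the microRNA on its own strand in 34 of 43 loci (79.1%, 64.8 to 88.6), and in no locus inside it. This held for 10 of 10 loci in non-coding hosts, 17 of 25 in protein-coding hosts and 7 of 8 without a host. The 10 include the locus of mir-317, whose host spans only its unbound genes. Counted per gene, 45 of 55 bound microRNA genes had it upstream (81.8%, 69.7 to 89.8), against 144 of 213 bound genes of transfer, small nucleolar and small nuclear RNAs (67.6%, 61.1 to 73.5). Genes of 1 cluster share peaks, so the count per gene is not of separate cases. For the nearest summit of each gene the split was 37 upstream and 18 downstream, at a median distance of 2317 bp (14 to 4937).

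**Figure D5:**
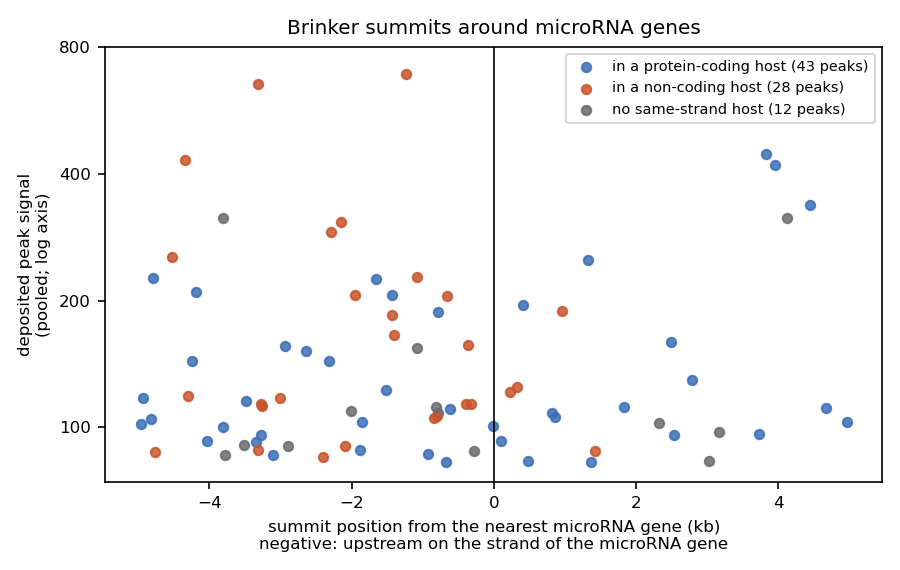
Signal of each of the 83 peaks on a log axis against the position of its summit from the nearest microRNA gene in kb, negative upstream, coloured by class of host. The highest peaks of loci in non-coding hosts lie upstream, and the 4 highest downstream peaks, from 314 to 445, belong to loci in protein-coding hosts or without a host.

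In 22 of the 35 bound loci with a host, the transcription start nearest to the strongest summit was that of the host (62.9%, 46.3 to 76.8), with 16 of 25 for protein-coding and 6 of 10 for non-coding hosts. In the other 13, the locus of mir-317 with its unhosted bound gene among them, it was the start of another gene. By place, 39 of the 83 peaks were within 500 bp of a start (47.0%), 24 in introns (28.9%), 9 in exons (10.8%) and 11 between genes (13.3%). Over all 3380 peaks the shares were 44.3%, 38.7%, 3.17% and 13.8%. The exon share at microRNA loci therefore lay above that of all peaks, with a Wilson interval of 5.81 to 19.3, and it holds peaks at mir-ban, mir-279, mir-282, mir-14, mir-276a and mir-275, loci with non-coding hosts, as well as at mir-2b-1, in a protein-coding host, and mir-4948, without a host.

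The strength of the microRNA peaks fell within the range of the rest. Their median signal was 113 (82.6 to 690), against 119 (82.6 to 1788) over all peaks of the arms, and 35 of the 83 were at or above that median (42.2%, 32.1 to 52.9). Among the strongest 100 peaks of the arms, 5 were at microRNA loci. Every one of the 83 overlapped an entry of replicate 3 and 81 an entry of replicate 4, and the list was built from both. In 60 of 83 (72.3%) the summit was within 100 bp in both replicates, against 77.8% of all peaks. The log2 ratio of replicate 3 to replicate 4 had a median of 0.06 and an SD of 0.64, against 0.03 and 0.55 over all. Windows around the 83 summits had 37.4% G and C (SD 8.01), against 35.6% (SD 7.12).

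When each replicate was used alone, with as many of its strongest peaks as the IDR list has, 64 microRNA genes were bound in replicate 3 and 61 in replicate 4. Of the 55 genes bound in the IDR list, 48 were bound in replicate 3 (87.3% of the 55 and 75.0% of the 64) and 49 in replicate 4 (89.1% and 80.3% of the 61), and 45 in all 3 lists, mir-ban among them. Bound in both replicates but not in the IDR list were mir-100, mir-92a, mir-92b, mir-965 and mir-3644. At mir-3644 the strongest entry within 5 kb, taken in each list separately, was 166 in replicate 3 and 142 in replicate 4. In the pooled list it was only 44.5, so a gene with strong entries in both replicates can be missing from the IDR list.

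The share of genes of the microRNA pathway itself that were bound was close to the background. Of 11 genes of microRNA maturation and action 3 had a summit, against 26.9% of protein-coding genes. AGO1, which encodes the Argonaute that carries microRNAs, had 5 peaks, the strongest with 66.7 in replicate 3, 70.8 in replicate 4 and 143 in the IDR list, at the promoter of its neighbour shot. The gene gw, whose GW182 protein silences with Argonaute, had 61.9, 68.3 and 114, 87 bp from its own start. Tailor, which adds uridines to precursors, had 3 peaks, the strongest with 60.7, 45.8 and 99.3. That peak lay between genes, 2603 bp from the nearest start, that of alphaTub84B. The genes drosha, pasha, Dcr-1, loqs, Ranbp21, Ars2, nbr and mei-P26 had no IDR summit, although at loqs replicate 3 alone listed an entry of 264. Of the small interfering RNA genes, r2d2 was bound at its own promoter (109, 76.5 and 159), and Dcr-2 and AGO2 were not.

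Regulators and targets of bantam were listed beside it. Of 7 regulators 6 had a summit, beside 26.9% of protein-coding genes, though the list holds brk itself. Both lists were chosen with earlier results of these data known, so their counts are not evidence about regulators or targets of bantam. The strongest were at hth (62.7 in replicate 3, 94.7 in replicate 4 and 168 in the IDR list, in an intron) and sd (110, 29.5 and 147, at its promoter). The gene yki had 73.0 in replicate 3, no overlapping entry in replicate 4 and 107 in the IDR list, 79 bp from its start. Of the overlapping entries, replicate 3 was thus the higher at sd and replicate 4 at hth. Anywhere within 5 kb, the strongest replicate 4 entry was 58.2 at sd and 56.3 at yki, against 110 and 73.0 in replicate 3. Med, at the promoter of its neighbour CycG, had 50.3, 80.9 and 144, and Mad 58.4, 34.9 and 94.3 at the promoter of toc. The peak counted for brk had 55.0, 39.5 and 92.0. It lay outside brk, in an intron of another gene, 6483 bp from the start of brk. The homeotic gene tsh had none. Of 5 targets, hid had 89.2, 151 and 234 at its promoter, 305 bp from the start, ena had an IDR signal of 149, Mad is given above, and Clk and mei-P26 had none.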

How the data were processed

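Chromatin from 2 biological replicates, numbered 3 and 4, was precipitated with an anti-GFP antibody, per the labels. The deposited narrowPeak lists for dm6 were used: 1 per replicate, 1 called on both replicates together, and the IDR list drawn from it. Values are the signal column as deposited by the authors, of unstated scale; setting replicates side by side assumes a shared scale. What aligner, peak caller and IDR cut-off served is not given in the sources used here. Depth is unknown. The dm3 lists were not used.

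Genes came from Ensembl release 115 (BDGP 6.54) and sequences from RefSeq Release 6, which held 260 of the 262 microRNA genes, all at the same span. After the data were seen, 485 mature arms listed as genes were left out. A summit is the peak start plus the deposited offset; in 82.9% of peaks on the arms it is within 1 bp of the midpoint, which limits its precision. A host spans the microRNA gene on its strand, and a locus takes its class from the host of any of its genes, protein-coding first. A start is the 5′ end of any transcript of a gene other than a microRNA gene, and a promoter is within 500 bp of one. Replicate values are from the strongest entry that overlaps a peak by at least 1 bp. No test was made, since there is 1 group; shares carry 95% Wilson intervals. The script was tested on simulated data with known answers. Python 3.11.15, pandas 2.3.3 and numpy 2.4.6 were used.

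Named were bantam, every bound locus, with values in full for the 12 strongest, and microRNAs with a well-known role. Members and lists were chosen with earlier results of these data known. Counts at host promoters and by name number were added after the data were seen. Alternatives varied the distance, the signal, the overlap rule, the linkage of loci and the replicates.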

Additional observations from a re-analysis of the deposited data

How the results depend on the processing

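The counts followed the distance allowed. Within 1, 2 and 10 kb there were 16, 24 and 87 bound microRNA genes, 14, 20 and 71 bound loci, 22, 37 and 168 peaks at them, and, at bantam, 0 peaks within 1 kb and 2 within 10 kb. With only peaks of at least the median signal, 30 genes, 25 loci and 35 peaks remained. With 1 replicate list in place of the IDR list, genes ranged from 61 to 64, loci from 46 to 49, peaks from 81 to 91 and peaks at bantam from 1 to 2, where the second is in replicate 3. Counting any overlap of a peak instead of its summit gave 58 genes and 46 loci, and requiring an entry in both replicates 53 and 41. No paired analysis was possible because there is 1 group. The lists give no read counts, so depth cannot be weighed, and a locus without a peak is only one where none was listed.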
